A study of Capra hircus with 9 samples.

Results

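The miR-221 and miR-222 cluster was described across the small RNA libraries of the goat mammary gland. Its members were the entries of the count table for either arm of miR-221 and of miR-222, and 3 of the 1359 listed miRNAs met this rule: chi-miR-221-3p, chi-miR-221-5p and chi-miR-222-3p. chi-miR-222-5p was not analysed here. Whole mammary tissue came from Laoshan dairy goats of the third parity in 3 stages. Late lactation (LL) was sampled 240 days postpartum, the dry period (DP) at 300 days, and late gestation (LG) 140 days from mating. Each stage had 3 goats and each goat gave 1 library, so the replicates are separate animals, and the labels name no treatment. All stages are points of the normal lactation cycle, and there is no other control group.

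miR-221 and miR-222 are made from neighbouring hairpins on the X chromosome and belong to 1 family, because their 3p strands share the seed, the stretch near the 5′ end that selects target mRNAs. They are best known for repressing the cell cycle inhibitors CDKN1B (p27) and CDKN1C (p57) and the receptor KIT, and are abundant in vascular endothelium and smooth muscle as well as in many dividing cells. The mammary gland passes from milk secretion through regression and rebuilding in the dry period to renewed growth before birth, so the stages differ in how much their epithelium divides and in how much stroma surrounds it. The question put to the data was in which of these stages the pair was high, and whether both hairpins and both arms changed alike.

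On the goat assembly ARS1.2, the gene MIR222 lies at chrX:26447922-26448033 (112 bp) and MIR221 at chrX:26448611-26448720 (110 bp). The hairpins are separated by 577 bp and together span 799 bp. At these X coordinates no other annotated gene overlaps them and no other annotated miRNA gene lies within 1 Mb. The gene table gives X positions without saying on which X sequence of the assembly they lie, and some of its X genes overlap in coordinates, so other neighbours are not described.

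The members were of middling to high abundance. chi-miR-221-3p, the main strand of its hairpin, ranked between 58 and 71 of all listed miRNAs by count in DP and between 101 and 115 in LL and LG. A library held between 13672653 and 34378995 counts in total, and the lowest count of any member in any library was 704. One miRNA, chi-miR-148a-3p, took 48.4% to 59.4% of the counts in LL, 39.4% to 44.6% in LG and only 8.81% to 10.8% in DP. Libraries were therefore compared after TMM scaling, which sets the bulk of the miRNAs level between libraries, and levels are given as CPM, counts relative to the scaled total of the library. All 3 members passed the filter of at least 0.5 CPM in at least 3 libraries, and 696 miRNAs passed in all.

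All members stood highest in the dry period. chi-miR-221-3p was at 221.1, 212.9 and 256.7 CPM in the LL goats, at 932, 801 and 677 CPM in the DP goats and at 195, 244 and 194 CPM in the LG goats (replicates 1, 2 and 3 in each case). Its lowest DP library was thus above every LL and LG library, whereas the LL and LG libraries overlapped. The stage means were 230 ± 23.3 CPM in LL, 804 ± 128 CPM in DP and 211 ± 28.4 CPM in LG (SD, n = 3).

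chi-miR-221-5p, the less abundant strand of the same hairpin, was at 55.7, 46.5 and 49.3 CPM in LL, at 179.5, 150.9 and 123.8 CPM in DP and at 43.3, 54.4 and 33.8 CPM in LG. It followed the 3p strand: the DP libraries were the highest, in the same order of goats, and LL and LG overlapped. The means were 50.5 ± 4.72, 151 ± 27.8 and 43.8 ± 10.3 CPM in LL, DP and LG (SD, n = 3).

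chi-miR-222-3p, the main strand of the neighbouring hairpin, was at 119, 125 and 125 CPM in LL, at 515, 249 and 228 CPM in DP and at 99.7, 123 and 77.4 CPM in LG. Here too the DP libraries lay above all others, but DP replicate 1 stood far above the other DP goats, and the DP mean of 331 CPM carried an SD of 160.1 (n = 3). The LL goats were close together (123 ± 3.19 CPM, SD, n = 3) and the LG mean was 99.96 ± 22.64 CPM (SD, n = 3), with overlapping libraries. Summed over the 3 members, the cluster reached 404 ± 24.1 CPM in LL, 1286 ± 308 CPM in DP and 355 ± 59.5 CPM in LG (SD, n = 3).

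**Figure D1:**
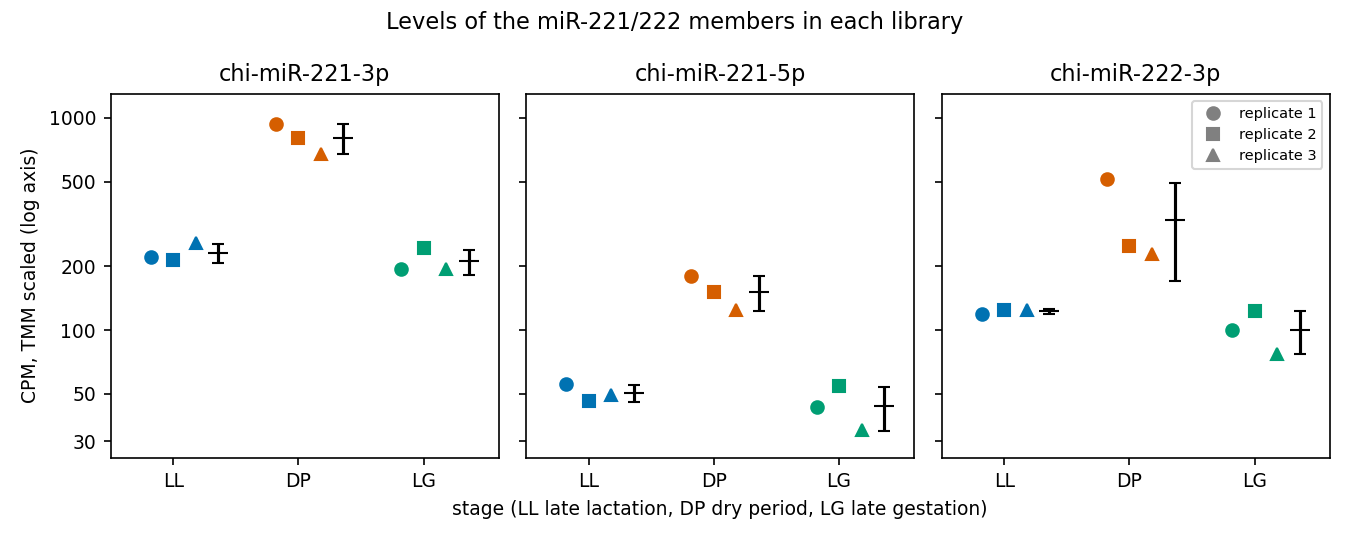
Level of each member in each library (points, shaped by replicate number) as TMM-scaled CPM on a log axis, by stage, with the mean and SD of the 3 goats in black beside them. In every panel the 3 DP libraries lie above all LL and LG libraries, and for chi-miR-222-3p DP replicate 1 (515 CPM) stands apart from the other DP libraries (249 and 228 CPM).

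The first comparison was DP vs. LG, the dry gland against the gland shortly before birth. All 3 members were higher in DP by edgeR's quasi-likelihood test, in which a miRNA was called differentially expressed (a DE-miRNA) when its log2 fold change was over 1 in size and its p, adjusted by Benjamini-Hochberg, was below 0.05. chi-miR-221-3p was 3.81-fold higher (95% interval 2.7 to 5.37, log2 fold change 1.93, SE 0.22, adjusted p = 0.000209). chi-miR-221-5p was 3.45-fold higher (2.29 to 5.22, log2 fold change 1.79, SE 0.27, adjusted p = 0.000765). chi-miR-222-3p was 3.31-fold higher (1.98 to 5.53, log2 fold change 1.73, SE 0.34, adjusted p = 0.00278). Of the 696 miRNAs tested, 150 (21.6%) were called higher in DP in this comparison and 193 (27.7%) had all DP libraries above all LG libraries, so a rise of this kind was common. Without LG replicate 1, LG replicate 2 or LG replicate 3, 95, 94 and 87 miRNAs were called higher, the last of these 12.7%. By fold change, the members ranked 64, 76 and 85 of the 696. The median log2 fold change of all miRNAs tested was 0.18, against 1.79 for the 3 members.

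The second comparison, DP vs. LL, set the dry gland against the gland at the end of lactation. It shares the DP libraries with the first comparison, so the pair of results is not independent. chi-miR-221-3p was 3.49-fold higher in DP (2.48 to 4.91, log2 fold change 1.80, SE 0.22, adjusted p = 0.000336), chi-miR-221-5p 3-fold higher (1.99 to 4.52, log2 fold change 1.58, SE 0.27, adjusted p = 0.00189) and chi-miR-222-3p 2.69-fold higher (1.62 to 4.48, log2 fold change 1.43, SE 0.33, adjusted p = 0.00915, edgeR). Here 105 of the 696 miRNAs (15.1%) were called higher in DP and 146 (21.0%) had all DP libraries above all LL libraries. The share called higher was 8.85% without LL replicate 1 and 9.32% without LL replicate 2. The members ranked 45, 70 and 92 by fold change, and the median log2 fold change of all miRNAs tested was 0.12.

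The rise of chi-miR-222-3p leaned on 1 goat. Without DP replicate 1, its log2 fold change was 0.84 in DP vs. LL (adjusted p = 0.021, edgeR), under the fold limit for a DE-miRNA, and 1.07 in DP vs. LG (adjusted p = 0.00566, edgeR), just above it. chi-miR-221-3p and chi-miR-221-5p kept their calls in DP vs. LG and DP vs. LL whichever library was left out, with log2 fold changes of 1.57 to 1.90 for the 3p strand and 1.32 to 1.82 for the 5p strand.

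The third comparison, LL vs. LG, found no DE-miRNA among the members. The log2 fold change was 0.13 (95% interval −0.35 to 0.61, adjusted p = 0.762) for chi-miR-221-3p, 0.21 (−0.37 to 0.79, adjusted p = 0.672) for chi-miR-221-5p and 0.30 (−0.43 to 1.02, adjusted p = 0.608) for chi-miR-222-3p (edgeR), with LL taken over LG. The unadjusted p-values were 0.571, 0.452 and 0.385, and neither DESeq2 nor limma-voom called any of the 3. The intervals bound a difference between these stages at about the fold limit at most, and they do not show that the levels were equal. In this comparison 89 of 696 miRNAs (12.8%) were called in either direction, and 337 (48.4%) had no overlap between the stages. The sign was not fixed: scaled by library size alone, the log2 fold changes were −0.46, −0.38 and −0.28, and none was called. On that scale chi-miR-221-3p ranged from 165 to 196 CPM in LL and from 223.3 to 289.7 CPM in LG, with no overlap. chi-miR-221-5p did not overlap either (37.13 to 42.79 CPM in LL and 43.4 to 64.69 CPM in LG), whereas chi-miR-222-3p did (88.66 to 114.7 and 99.42 to 145.9 CPM), and 47.0% of the miRNAs tested had no overlap on this scale. That scale counts the large share of chi-miR-148a-3p against every other miRNA of a library, and under it the median log2 fold change of all miRNAs was −0.42 in this comparison. The order of the stages was therefore DP first for each member, with LL and LG as neighbours that the test did not separate under any scaling tried.

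**Figure D2:**
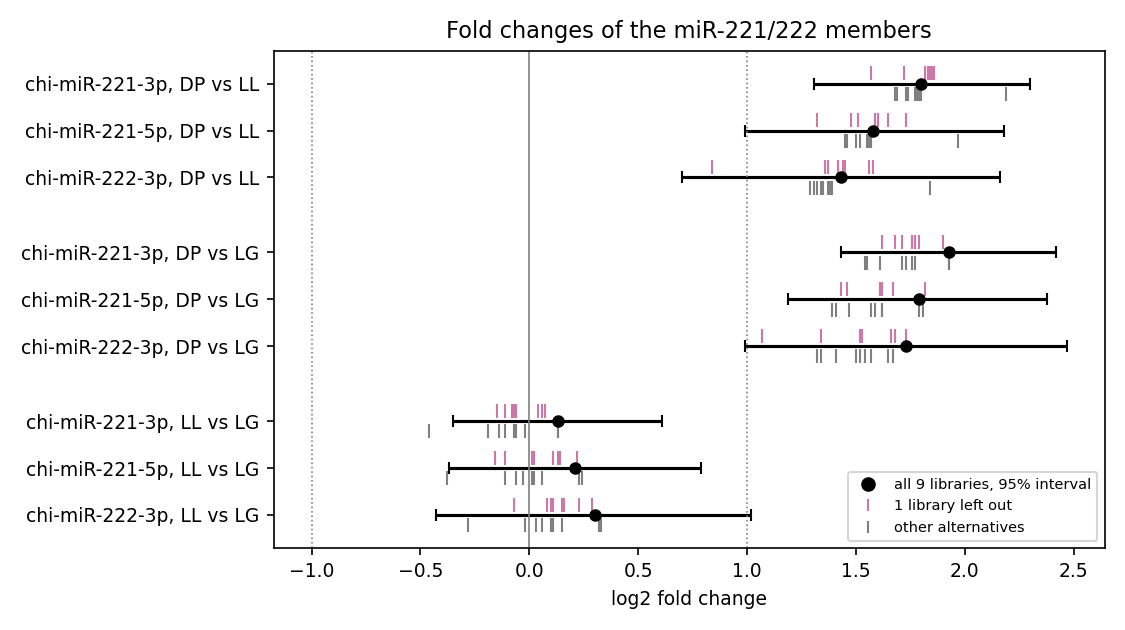
Log2 fold change of each member in each comparison, with the 95% interval (black), the values with 1 library left out (pink ticks above) and the values under the other alternatives (grey ticks below); the dotted lines mark a log2 fold change of 1 in either direction. The DP comparisons stay right of 0 throughout, the value of chi-miR-222-3p without DP replicate 1 falls to 0.84 in DP vs. LL, and the LL vs. LG values lie on both sides of 0.

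Both arms of the mir-221 hairpin are cut from the same precursor, so their ratio within a library does not depend on how libraries are scaled. The 5p strand made up 20.1%, 17.9% and 16.1% of the mir-221 counts in the LL goats, 16.1%, 15.9% and 15.5% in the DP goats and 18.2%, 18.3% and 14.8% in the LG goats. The Wilson 95% intervals, which cover counting error only, were widest in LL replicate 1, at 18.8% to 21.5%. The 3p strand was the major one in all 9 libraries, and the DP shares lay within the range of the other stages. The means were 18.1% ± 2.01 in LL, 15.8% ± 0.344 in DP and 17.1% ± 1.96 in LG (SD, n = 3). The stages were compared by an exact permutation test of the F ratio, the variance between stage means over the variance within stages. The permutation test did not separate the 3 stages (p = 0.286, Benjamini-Hochberg adjusted over the 2 ratios tested, 0.286). The smallest p this design can give is 0.00357. With 3 goats per stage, the result does not show that the shares were equal.

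The neighbouring hairpins were compared by the ratio of chi-miR-222-3p to chi-miR-221-3p counts in a library. Counts of different small RNAs also depend on how well each sequence is captured, so the ratio compares libraries and not the amounts of both miRNAs. It was 0.538, 0.585 and 0.485 in LL, 0.553, 0.311 and 0.337 in DP and 0.512, 0.504 and 0.399 in LG. DP replicate 1 had a ratio like that of the LL goats, while the other DP goats had the lowest ratios of all 9 libraries. On the log2 scale the means were −0.903 ± 0.136 in LL, −1.37 ± 0.450 in DP and −1.09 ± 0.202 in LG (SD, n = 3). The exact permutation test of the F ratio did not separate the 3 stages (p = 0.204, adjusted over the 2 ratios, 0.286), which does not show that the ratios were equal. Without DP replicate 1 the unadjusted p was 0.0464, so the comparison turned on this library. Between pairs of stages the design cannot give a p below 0.1.

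**Figure D3:**
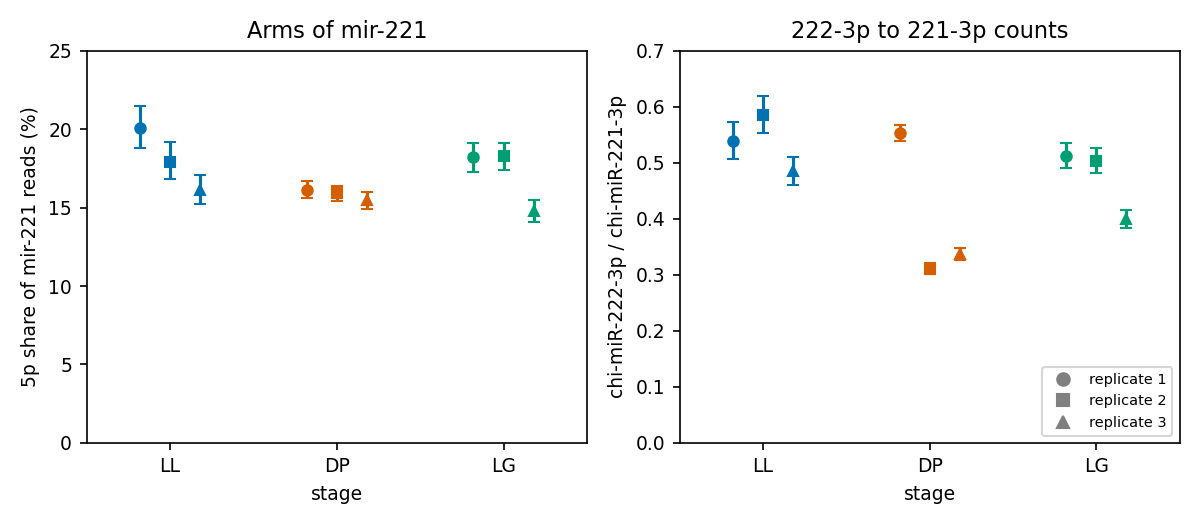
Ratios within each library by stage: the share of mir-221 counts from the 5p strand in percent (left) and the ratio of chi-miR-222-3p to chi-miR-221-3p counts (right), with 95% intervals for counting error; points are shaped by replicate number. The 5p share lies between 14.8% and 20.1% in all libraries, and the ratio is 0.311 and 0.337 in DP replicates 2 and 3 against 0.399 to 0.585 in all others.

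Other miRNAs known to act on the cell cycle were counted beside the members. A first list held 9 miRNAs that, like the members, repress inhibitors of cyclin-dependent kinases, mainly of the miR-17, miR-25 and miR-24 families. Of these, 1 was called higher and 2 lower in DP vs. LG, and 1 higher and 2 lower in DP vs. LL, with median log2 fold changes of −0.39 and 0.53. Among all miRNAs tested, 21.6% were called higher and 9.91% lower in DP vs. LG, and 15.1% higher and 11.6% lower in DP vs. LL. The split of the list was not stable: with library size only it was 3 higher and 1 lower in DP vs. LL, and under most alternatives it was 0 or 1 higher and 3 lower in DP vs. LG. With library size only, 23.7% of all miRNAs were called higher and 8.48% lower in DP vs. LL. chi-miR-24-3p, known to repress p16 and p27, was the member called higher (log2 fold change 1.30, adjusted p = 0.0161, in DP vs. LG; 1.04, adjusted p = 0.046, in DP vs. LL), and it was called in 6 of 18 and 3 of 18 alternatives to these fits. chi-miR-92b was called lower in DP vs. LG (log2 fold change −1.29, adjusted p = 0.00119), chi-miR-106a-5p in DP vs. LL (−1.24, adjusted p = 0.0108) and chi-miR-20b in both (−1.13 and −1.60). In DP vs. LG chi-miR-106a-5p was just under the fold limit (−0.99, adjusted p = 0.0244, edgeR) and was called lower in 17 of 18 alternatives. chi-miR-25-3p, among the most abundant of the list, was at 1658 ± 203, 2632 ± 977 and 2778 ± 464 CPM in LL, DP and LG (SD, n = 3) and was not called in either. None of the 9 was called in LL vs. LG, where 5 had an adjusted p under 0.05 (edgeR) but log2 fold changes of only −0.97 to −0.77, and up to 6 were called lower under the alternatives. The share of all miRNAs called lower in LL vs. LG was 3.88%, and it was 12.9% with library size only and 4.07% with no filter, under each of which 6 of the 9 were called.

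A second list held 15 miRNAs known for the opposite side of the cell cycle, repressing cyclins and cyclin-dependent kinases: let-7, miR-15/16, miR-34 and miR-26 family members. Of these, 14 were tested and chi-miR-449a-5p was not. In DP vs. LG 8 were called higher and 0 lower (median log2 fold change 1.27), and in DP vs. LL 9 higher and 0 lower (median 1.26, edgeR), against 21.6% and 15.1% of all miRNAs tested that were called higher. Without DP replicate 1 these became 4 higher and 1 lower, and 5 higher and 1 lower, with medians of 0.76 and 0.94. Without LG replicate 3, 4 were called higher in DP vs. LG (12.7% of all miRNAs in that fit), and 5 were with DESeq2 (18.2%), with no filter (7.98%) and with at least 10 counts in every library (19.0%). chi-miR-26a-5p, the most abundant, was at 39052 ± 4566 CPM in LL, 84001 ± 46479 CPM in DP and 32072 ± 984 CPM in LG (SD, n = 3, log2 fold change 1.39 in DP vs. LG, adjusted p = 0.00769, edgeR). It was called in 14 of 18 alternatives in DP vs. LG and in 10 of 18 in DP vs. LL. chi-let-7a-5p, at 10429 ± 1442, 24449 ± 4610 and 10999 ± 259 CPM (SD, n = 3), was higher in DP vs. LG by 1.15 and in DP vs. LL by 1.23 on the log2 scale (adjusted p = 0.00181 and 0.00185, edgeR), although in DP vs. LG it stayed over the limits in 5 of 18 alternatives, against 17 of 18 in DP vs. LL. chi-let-7b-5p was higher by 1.40 and 1.33 (adjusted p = 0.00155 and 0.00272, edgeR).

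The level of a miRNA in whole tissue mixes how many cells carry it with how much each cell holds, and fewer cells of a type and less RNA per cell cannot be told apart here. miRNAs that mark cell types were therefore counted in the same fits. All 4 fibroblast markers (both arms of miR-199a and miR-214) were called higher in DP vs. LG and in DP vs. LL, with median log2 fold changes of 2.34 and 1.78, where 21.6% and 15.1% of all miRNAs tested were called higher, and the summed level of the list was 4847 to 10480 CPM in LL, 17281 to 29959 CPM in DP and 4401 to 4983 CPM in LG. Without LL replicate 1 or without LL replicate 2, 2 of the 4 were called in DP vs. LL, where 8.85% and 9.32% of all miRNAs were called higher. chi-miR-199a-3p was at 5274 ± 2033, 19786 ± 5166 and 3302 ± 285 CPM in LL, DP and LG, chi-miR-199a-5p at 2066 ± 770.1, 4389 ± 1878 and 1333 ± 54.3 CPM, and chi-miR-214-3p at 66.8 ± 27.8, 451 ± 90.0 and 67.0 ± 11.2 CPM (SD, n = 3). Of the 5 epithelial markers (the miR-200 family), 3 were called lower in DP vs. LG and 5 in DP vs. LL (medians −1.48 and −1.11), against 9.91% and 11.6% of all miRNAs tested, while in DP vs. LL 0 of the 5 were called when libraries were scaled by size alone (median −0.75) and 3 without DP replicate 2. With library size only and without DP replicate 2, 8.48% and 10.2% of all miRNAs were called lower in DP vs. LL. Under most alternatives all 5 were called lower in DP vs. LG. Their summed level was 34893 to 42110 CPM in LL, 13064 to 20811 CPM in DP and 34218 to 37558 CPM in LG, and chi-miR-200b fell from 23642 ± 2726 CPM in LL to 10916 ± 2794 CPM in DP and chi-miR-200a from 6617 ± 429.8 to 3252 ± 523 CPM (SD, n = 3). Fibroblast and epithelial marker miRNAs thus moved with the stage in the same libraries as the cluster, and their part in the change of the members was not tested.

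The markers of other cell types gave a mixed picture, and a count of 1 in a list of 4 or 5 lies near the shares of all miRNAs tested (called higher, 21.6% in DP vs. LG and 15.1% in DP vs. LL, and 12.8% in either direction in LL vs. LG). Of the endothelial pair, both arms of miR-126, 1 was called higher in DP vs. LG (chi-miR-126-5p, log2 fold change 1.08, called in 3 of 18 alternatives), and in DP vs. LL neither was called (adjusted p = 0.14 for both, edgeR) under any alternative, with summed levels of 15852 to 22980 CPM in LL, 19028 to 31975 CPM in DP and 14716 to 16363 CPM in LG. Of the 4 markers of smooth muscle and myoepithelium (miR-143 and miR-145), 1, chi-miR-145-3p, was called higher over LG in DP and in LL, the latter in 7 of 18 alternatives, with none called between DP and LL (up to 2 lower under the alternatives), and with sums of 72094 to 116455, 31261 to 125136 and 53225 to 61872 CPM in LL, DP and LG. Of 6 immune cell markers, 5 were called higher in DP vs. LG and 4 in LL vs. LG, and DP vs. LL called 1 higher and 1 lower, while their sum, led by chi-miR-146b-5p, ran from 8271 to 31262 CPM in LL, from 2196 to 3872 CPM in DP and from 1247 to 5559 CPM in LG. Without DP replicate 2, LG replicate 2 or LG replicate 3, 2 immune markers were called in DP vs. LG, and in LL vs. LG the count was 2 without LL replicate 2 or LG replicate 2, 1 without LL replicate 1 and 0 without LG replicate 3. The 3 red blood cell markers summed to 365 to 551, 122 to 1284 and 87.1 to 168 CPM in LL, DP and LG, with 1 called higher in DP vs. LG (chi-miR-451-5p, called in 12 of 18 alternatives). The 5 skeletal muscle markers summed to 720 to 932, 971 to 3444 and 419.2 to 529.8 CPM, with 2 called higher in DP vs. LG and 1 in DP vs. LL. Without DP replicate 1 these were 4 and 2, without DP replicate 2 they were 2 and 2, and without DP replicate 3 they were 1 and 1, and the list median for DP vs. LG was 0.40 in place of 1.72 on the log2 scale. The shares of all miRNAs called higher in these fits were 19.5%, 16.2% and 15.8% in DP vs. LG and 12.2%, 14.7% and 13.9% in DP vs. LL. No listed marker was at 0 in all libraries.

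Within the dry period, DP replicate 1 was the library highest in all 3 members and was not the one highest in stromal markers. In it chi-miR-221-3p, chi-miR-221-5p and chi-miR-222-3p were at 932, 179.5 and 515 CPM. DP replicate 1 had the lowest fibroblast sum of the DP libraries (17281 CPM against 26890 and 29959) and the lowest endothelial sum (19028 CPM against 31975 and 28312). Its sum for smooth muscle and myoepithelium was also the lowest (31261 CPM against 42084 and 125136). So were its red blood cell and skeletal muscle sums (122 CPM against 1284 and 576, and 971 CPM against 1070 and 3444). Its epithelial and immune cell sums were the highest (20811 CPM against 18318 and 13064, and 3872 CPM against 3689 and 2196). DP replicate 1 was also the library with the lowest total, 13672653 counts. The part of depth or of cell makeup in the level of that library was not tested.

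**Figure D4:**
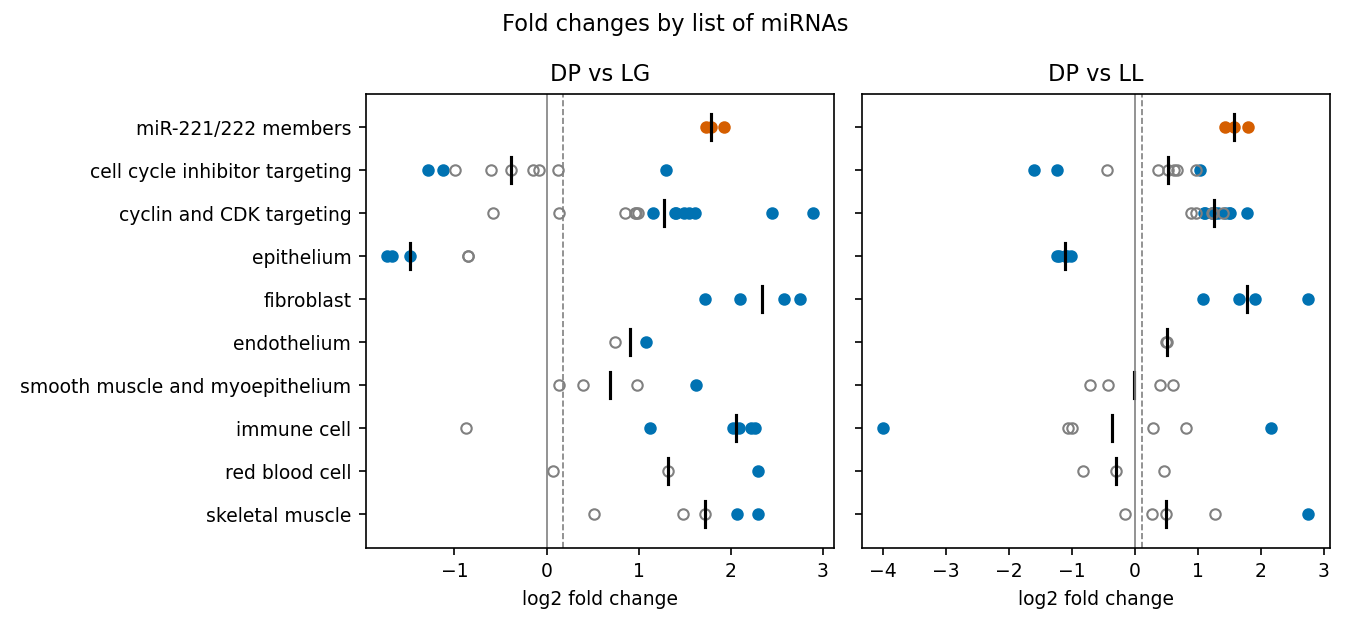
Log2 fold change of each member and of each tested miRNA of the cell cycle and cell type lists in DP vs. LG (left) and DP vs. LL (right). For the lists, filled blue points are called DE-miRNAs and open points are not; orange points are the 3 members, all called; short black lines are list medians and the dashed line is the median of all miRNAs tested. The members lie between 1.43 and 1.93, the 4 fibroblast markers are all called higher, and the epithelial markers lie left of 0.

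The known miRNAs were then ordered by how closely their profile over the 9 libraries followed that of chi-miR-221-3p, by Pearson's r of log2 CPM among 367 of them. The points share 3 stages, the same libraries and the same scaling, so r is a description only. chi-let-7e-5p came first (r = 0.986), followed by chi-miR-505-3p (0.985), which also lies on the X chromosome. chi-miR-221-5p, the other arm of the same hairpin, ranked 3 (0.985). Next were chi-miR-147-3p (0.979), chi-miR-28-5p (0.972) and chi-miR-199b-5p (0.969), and chi-miR-222-3p, from the neighbouring hairpin, ranked 17 (0.940). The miRNAs with the highest r were at very different levels. chi-miR-505-3p was at 11.7 ± 0.903, 41.2 ± 10.1 and 10.9 ± 1.39 CPM in LL, DP and LG, and chi-let-7e-5p at 529 ± 82.7, 1321 ± 97.2 and 499.7 ± 18.41 CPM (SD, n = 3). chi-miR-147-3p, at 3.32 ± 1.06, 13.73 ± 3.201 and 2.86 ± 0.593 CPM, had the largest log2 fold change of these in DP vs. LG, 2.26. The order depended on the measure. By Spearman's rho 2 of the leading 5 remained, and chi-miR-222-3p (rho = 0.900) was above chi-let-7e-5p (0.733), chi-miR-28-5p (0.717) and chi-miR-199b-5p (0.833). With Pearson's r and scaling by library size, 4 of the 5 remained.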

How the data were processed

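Small RNA was sequenced from the mammary gland of 9 goats, 3 per stage, and stages were taken from the sample labels. The authors trimmed the reads (the paper names Trimmomatic, the submitters' processing notes cutadapt 4.2, with FastQC 0.11.9 and Bowtie 1.1.1), mapped them to the goat genome and counted them per mature miRNA with the miRDeep2 quantifier, and the counts were deposited without normalization. The LL replicate 3 column, as deposited, was read as a column of expected counts because 2 of its values are 209.5, which were rounded to whole numbers, and how they arose is not given in the sources used here. Reads carried no molecular identifiers as far as the sources say, so intervals cover counting error only. Gene positions came from the RefSeq gene table of ARS1.2, which matched 430 of the 436 known miRNAs. The mature sequences of the members were not used here.

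Counts were fitted with edgeR 4.0.16 in R 4.3.3 (glmQLFit, glmQLFTest) with TMM scaling, all 9 libraries and no term other than stage. A miRNA had to reach 0.5 CPM in 3 or more libraries, which left 696, 368 of them known. Likeness was computed on log2 CPM with a prior count of 2. Ratios within libraries were tested with exact permutation tests over 280 assignments (scipy 1.17.1). The step was tried on simulated data with known changes. The simulated libraries had 1 spread for all miRNAs and the same mean composition apart from those changes. The simulation therefore does not show how the test or the scaling behaves in these libraries. No members had counts equal to another entry (0 of 3), and libraries of 1 stage differed by far more than counting noise (chi-square of 219 or more per degree of freedom). The fit was repeated with other tests (limma-voom of limma 3.58.1 and DESeq2 1.42.0), with other scalings (by upper quartile, by library size, and TMM after removing chi-miR-148a-3p), with other filters (none, or 10 counts in each library), within the pair of stages compared, with the replicate number as a block and after leaving out each library in turn. Running them on the lists was decided after the data were seen. The members and the lists of cell cycle and cell type miRNAs were chosen with earlier results of these data known, so list counts are descriptions. The text names all members, the most abundant miRNAs of a list and the 5 known miRNAs most like chi-miR-221-3p. chi-miR-20b, chi-miR-92b, chi-miR-106a-5p, chi-miR-126-5p, chi-miR-145-3p and chi-miR-451-5p were named after their values were seen.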

Additional observations from a re-analysis of the deposited data

How the results depend on the processing

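All 3 members were called higher in DP vs. LG, and chi-miR-221-3p and chi-miR-221-5p in DP vs. LL, under all 18 alternatives, and chi-miR-222-3p in DP vs. LL was called in 17 of them. With 1 library left out its log2 fold change there ran from 0.84 to 1.58, and only the fit without DP replicate 1 lost the call, by falling under the fold limit. In both comparisons with LG, the reported values lay at or near the upper end of those under all alternatives.

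In LL vs. LG no member was called under any alternative, but the sign changed. For chi-miR-221-3p the log2 fold change was −0.02 with upper quartile scaling, −0.46 scaled by library size, −0.07 after leaving out chi-miR-148a-3p, −0.06 with DESeq2, −0.19 with no filter, −0.14 with at least 10 counts in every library and −0.11 with only both stages in the fit. For chi-miR-221-5p it was −0.38, −0.11, −0.06 and −0.03 with library size only, no filter, at least 10 counts and only both stages, and for chi-miR-222-3p −0.28 and −0.02 with library size only and no filter. With 1 library left out the values ran from −0.15 to 0.07, from −0.16 to 0.22 and from −0.07 to 0.29 for the 3 members. The cause was not tested.

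The number of DE-miRNAs in LL vs. LG was 89, but 144 with only both stages in the fit and 33 to 125 with 1 library left out, lowest without LL replicate 1, with 36, 54 and 41 without LL replicate 2, LG replicate 1 and LG replicate 3. Scaling by library size only moved the split of calls higher and lower from 150 and 69 to 116 and 85 in DP vs. LG, from 105 and 81 to 165 and 59 in DP vs. LL and from 62 and 27 to 30 and 90 in LL vs. LG, and moved the median log2 fold change of all miRNAs from 0.18, 0.12 and 0.17 to −0.02, 0.49 and −0.42. DESeq2 split 127 and 100, 117 and 90, and 64 and 59. The exact p of the ratio of chi-miR-222-3p to chi-miR-221-3p over the stages ran from 0.0464 to 0.504 with 1 library left out, lowest without DP replicate 1.

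The replicate numbers were not taken to pair the goats, because the labels name no shared animal, litter or day and the deviations of libraries with the same number correlated between −0.101 and 0.214, not all above 0.1. A library correlated best with its own number in 12 of 18 cases, which is a hint of pairing from the data and not from the design. A replicate block left all calls of the members as they were, with log2 fold changes of 1.93, 1.79 and 1.67 in DP vs. LG and 1.80, 1.57 and 1.35 in DP vs. LL, and moved no count of DE-miRNAs by over 1.5 times.

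With 3 goats per stage, pairs of stages cannot reach an exact p below 0.1 for a single ratio.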

Other observations

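The members were also set beside the other known miRNAs with a gene on the X chromosome, a list chosen after the values were seen and therefore given without a test. Of the 32 tested, 11 were called higher and 1 lower in DP vs. LG (median log2 fold change 0.62, against 0.18 for all miRNAs tested), 6 higher and 1 lower in DP vs. LL (0.60 against 0.12) and 4 higher and 2 lower in LL vs. LG (0.36 against 0.17). Among all miRNAs tested, 21.6% were called higher in DP vs. LG, 15.1% higher in DP vs. LL and 12.8% in either direction in LL vs. LG. Near chi-miR-221-3p in fold change was chi-miR-505-3p, with log2 fold changes of 1.91 in DP vs. LG and 1.81 in DP vs. LL (adjusted p = 0.000719 and 0.00119, edgeR).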
